A study of Homo sapiens with 10 samples.

Results

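Complement components and regulators were represented by 9 genes of 19775 with a probe set on the arrays: C1R, C1S, C3, CFB, SERPING1, CFI, CD46, CD55 and CD59. They were taken by symbol, as the platform annotation assigns 20 probe sets to them, and the brightest probe set of each gene, by mean log2 over the 10 arrays, describes it. Of these genes 8 had a mean signal of 66.7 or more, the median over probe sets, and were tested. SERPING1 was dim, that is below that limit, and is given as values.

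Complement is a cascade of serum and membrane proteins that tags cells and debris for removal and can open pores in membranes. In the classical pathway the protease C1r cleaves and activates the protease C1s, which goes on to cleave C4 and C2. All routes meet at C3, and factor B (gene CFB) supplies the protease of the convertase that amplifies C3 cleavage in the alternative pathway. The C1 inhibitor (SERPING1) inactivates C1r and C1s, and factor I (CFI) cuts active C3 and C4 fragments with the help of cofactors such as CD46. On the cell surface CD55 dissociates convertases and CD59 blocks the pore. The liver makes most of the plasma proteins, but lung epithelial cells also transcribe several of these genes, and interferons, IL-6 and NF-kB are known inducers of C1R, C1S, C3, CFB and SERPING1.

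Promoters of 3 genes whose signal rose together in A549 are shown because motifs of the known inducers can be looked for in them. The sequences are RefSeq's on GRCh38.p14, the 250 bases before the annotated start of each gene, with motif matches in capitals. CFB lies on the plus strand of chromosome 6 (window chr6:31945845-31946094), C1R on the minus strand of chromosome 12 (window chr12:7092446-7092695) and CFI on the minus strand of chromosome 4 (window chr4:109802000-109802249).
CFB: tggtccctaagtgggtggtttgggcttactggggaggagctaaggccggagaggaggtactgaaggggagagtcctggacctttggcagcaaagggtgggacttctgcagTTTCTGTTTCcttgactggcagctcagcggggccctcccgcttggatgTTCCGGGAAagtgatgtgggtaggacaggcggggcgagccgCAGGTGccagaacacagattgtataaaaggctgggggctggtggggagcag
C1R: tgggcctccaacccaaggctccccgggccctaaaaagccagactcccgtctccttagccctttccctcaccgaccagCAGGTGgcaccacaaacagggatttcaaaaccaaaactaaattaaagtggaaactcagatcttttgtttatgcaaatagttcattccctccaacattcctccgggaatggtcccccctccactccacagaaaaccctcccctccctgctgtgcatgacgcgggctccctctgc
CFI: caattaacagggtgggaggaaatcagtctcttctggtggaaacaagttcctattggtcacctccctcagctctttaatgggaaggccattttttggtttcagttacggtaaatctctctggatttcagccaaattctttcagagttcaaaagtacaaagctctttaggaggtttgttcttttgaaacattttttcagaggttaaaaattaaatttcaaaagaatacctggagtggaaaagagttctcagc
The motifs searched on both strands were the core of the interferon-stimulated response element (a pair of GAAA blocks with any 2 bases between them), TTCNNNGAA, the gamma-activated site bound by STAT factors, GGGANTTCC for NF-kB, and CANNTG, the E-box bound by the basic helix-loop-helix partners of ID proteins. The CFB window held the interferon element as TTTCTGTTTC, which begins 140 bases before the start, the gamma-activated site as TTCCGGGAA at 92 bases, and an E-box at 51 bases. C1R held an E-box at 173 bases, and the CFI window held none of these letters. Among 35116 windows of the same length, 3.02% held the interferon element, 6.57% the gamma-activated site, 1.59% the NF-kB letters and 61.8% an E-box. Of the 9 genes 6 had a window, and in those of CD46, CD55 and CD59 the search matched a gamma-activated site in CD59 at 128 bases and nothing else. A match describes letters and is not a site shown to be used.

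Each group was 1 array of total RNA from a human non-small cell lung carcinoma line, either A549 or H1650. In each line the groups were ID1 siRNA plus nicotine, ID1 siRNA plus EGF, control siRNA plus nicotine, control siRNA plus EGF, and unstimulated control siRNA. All cells were serum starved for 48 h, and stimulated ones received 1 µM nicotine or 100 ng/ml EGF for 18 h. The values are MAS5 signals scaled to a common trimmed mean, and array medians over all probe sets lay between 61.2 and 79.6. A signal under the median of its own array is called dim here. The labels name no replicate cultures, so within lines a gene's own spread measures how far the ID1 siRNA effect differed between stimuli. In the comparison of lines it measures how far the line difference varied between conditions. An ID1 siRNA effect that differs between lines adds to that spread. Moderation by limma adds the spread of genes of similar signal. Errors are limma standard errors, and n is 2 pairs of arrays per line.

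ID1, the targeted helix-loop-helix protein that keeps its partners off DNA, had a lower signal with ID1 siRNA in all 4 pairs, at 0.361-fold and 0.440-fold of control with nicotine and EGF in A549 and at 0.177-fold and 0.201-fold in H1650. Set against unstimulated control cells, its ratio was 0.817 with nicotine and 0.816 with EGF in A549, where stimulated controls were above that array, and 0.175 and 0.205 in H1650. The A549 unstimulated control array lay nearer to the ID1 siRNA arrays than to the stimulated controls for ID1 (1645) and for THBD (thrombomodulin). For C1R, C3 and CFB it lay nearer to the stimulated controls, and for C1S between both groups. Whether this array carries the right label could not be checked. The ID1 siRNA estimates in A549 rest on matched stimulated arrays and were the same without it, with the same 5 calls. All 6 epithelial markers of a list (KRT7, KRT8, KRT18, KRT19, EPCAM, CDH1) were above the signal limit. PTPRC, the pan-leukocyte marker, stayed under the median of every array, as did ALB of hepatocytes. The summed signal of 5 macrophage and monocyte markers was 216 and 248 on A549 ID1 siRNA arrays and between 83.2 and 149 on A549 control arrays. In H1650 it was 489 and 501 with ID1 siRNA and between 405 and 485 with control siRNA, where CSF1R made up the largest share. The summed signal of 4 endothelial markers was 415 and 339 on A549 ID1 siRNA arrays and between 213 and 268 on A549 controls, and 435 and 410 with ID1 siRNA in H1650 and between 200.1 and 353 on its controls. The sum of 5 fibroblast markers was 1090.5 and 995 on A549 ID1 siRNA arrays, against 699, 598 and 1269 on the nicotine, EGF and unstimulated controls. COL1A1 made up its largest share, at 223 of the 598 on the A549 EGF control. In H1650 it was 1229 and 879 with ID1 siRNA and between 643 and 793 on controls. The sum of 4 hepatocyte markers was 457 and 384 on A549 ID1 siRNA arrays, against 388, 217 and 179 on the nicotine, EGF and unstimulated controls. In H1650 it was 253 and 392 with ID1 siRNA, against 331, 390 and 322 on the same controls. Bright enough to be tested were 1 macrophage, 1 endothelial, 3 fibroblast and 2 hepatocyte markers (TTR and CYP3A4). The part of these lists in the results was not tested. The median log2 change of all tested genes with ID1 siRNA was 0.05 in A549 and -0.01 in H1650, and after array-median centring it was -0.24 in A549.

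In A549, ID1 siRNA was accompanied by higher signals of the classical proteases, C3, factor B and factor I, while the membrane regulators did not pass the test. Of 8 tested genes 5 rose and 0 fell, against a background of 13.8% of 12514 tested genes called higher and 11.4% called lower in this line. Their median log2 change was 1.71, and that of all tested genes 0.05. C1S reached the signal limit through its A549 arrays. CFI reached it narrowly, at a mean log2 of 6.13 against 6.06, through its H1650 arrays together with its A549 ID1 siRNA arrays. The CFI call is therefore no independent support for its rise, and these counts describe the tested genes and not the whole group.

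**Figure D1:**
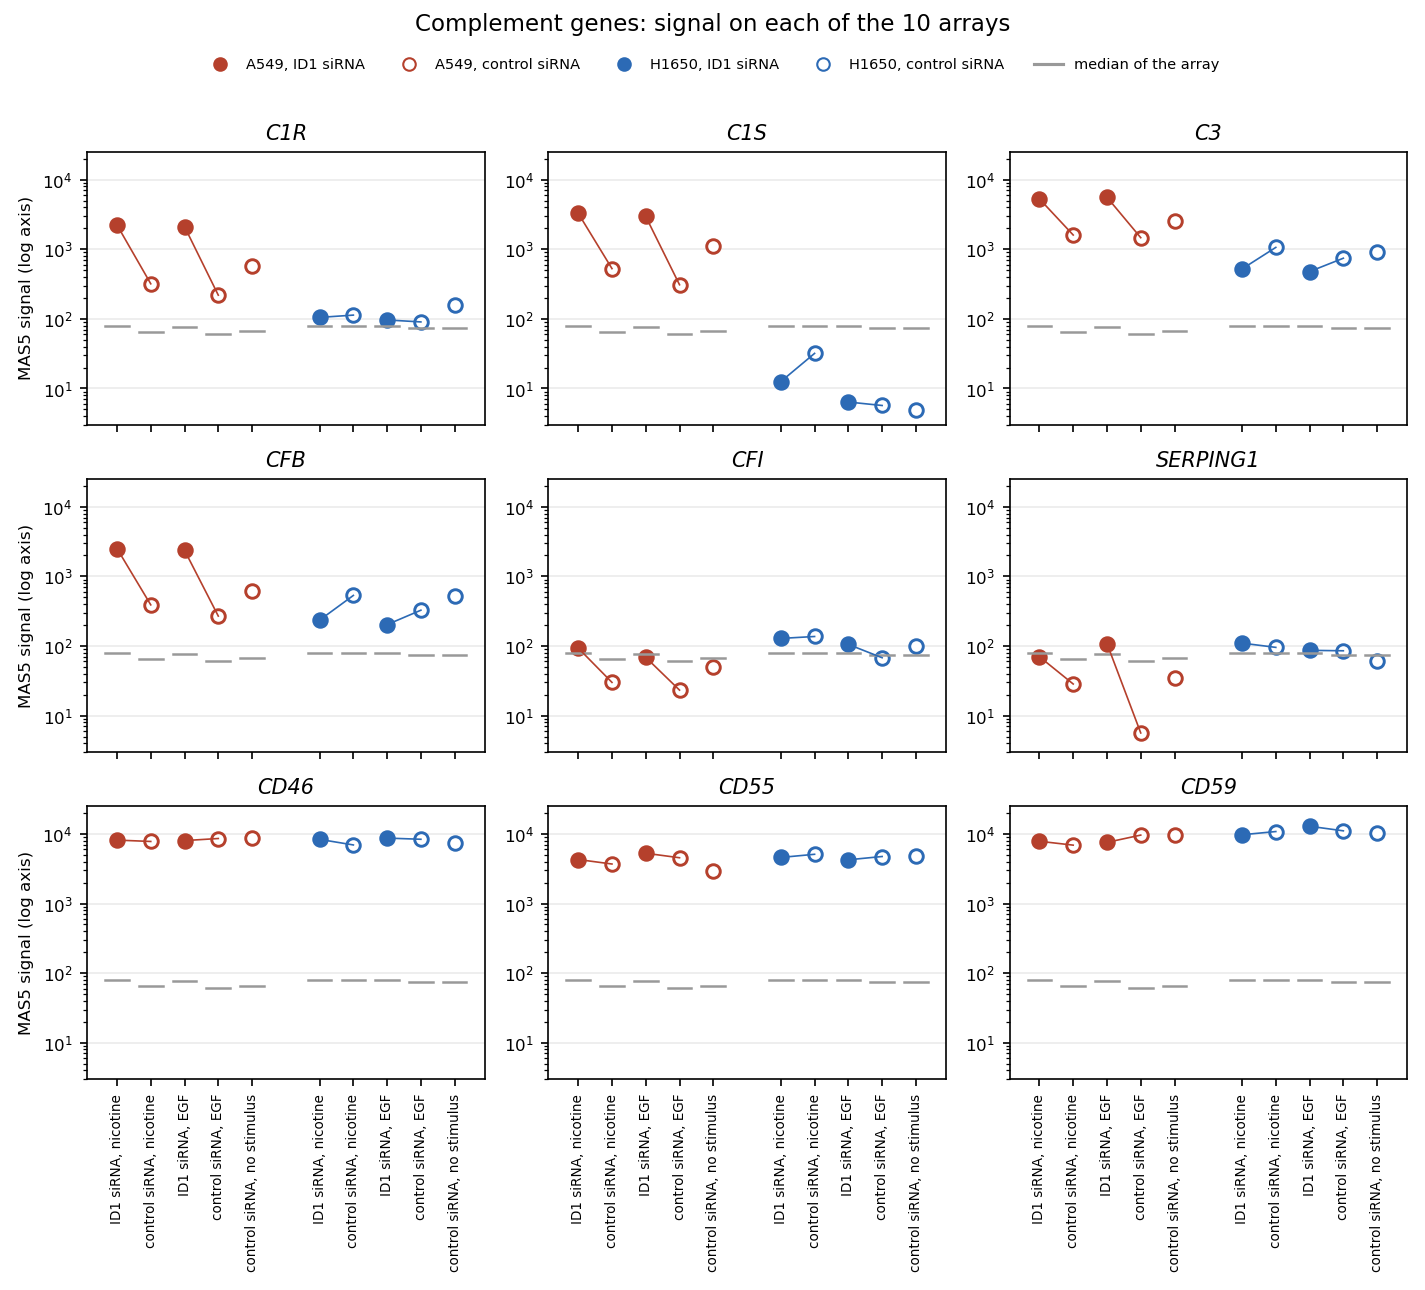
MAS5 signal (log axis) of the 9 complement genes on each array, with A549 in red and H1650 in blue, filled points for ID1 siRNA and open points for control siRNA. Lines join the pair of arrays under the same stimulus, and grey bars mark the median of each array. In A549 the filled points of C1R, C1S, C3 and CFB lie above every open point, and in H1650 those of C3 and CFB lie below.

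C1R, which starts the proteolysis of the classical pathway, had signals of 2235 with nicotine and 2115 with EGF on the A549 ID1 siRNA arrays. Control siRNA arrays had 319 with nicotine, 219 with EGF and 582 without a stimulus. Both ID1 siRNA arrays thus lay above all 3 controls, by 7.0-fold and 9.66-fold over the matched ones and by 3.84-fold and 3.63-fold over the unstimulated one. The log2 change was 3.04 ± 0.21 (limma adjusted p = 4.66e-05).

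C1S, the protease that C1r activates, changed by a similar factor, with 3289 and 2959 on the A549 ID1 siRNA arrays with nicotine and EGF. Its controls had 527 with nicotine, 309 with EGF and 1111 without a stimulus. No control reached either ID1 siRNA array. The log2 change was 2.95 ± 0.43 (limma adjusted p = 0.00200), and the unstimulated control was exceeded 2.96-fold and 2.66-fold. A second, dimmer probe set of C1S had 343 and 241 on the ID1 siRNA arrays and dim matched controls, and was at least 4.55-fold higher over both pairs when each dim control is set to the median of its array, the rule used for such folds here.

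CFB, which encodes the protease of the alternative pathway, had signals of 2517 with nicotine and 2374 with EGF on the A549 ID1 siRNA arrays. Control siRNA arrays had 390.2 with nicotine, 269 with EGF and 614 without a stimulus. The groups did not overlap, and the ID1 siRNA arrays lay 4.10-fold and 3.86-fold above the unstimulated control. CFB rose by 2.92 ± 0.18 on the log2 scale (limma adjusted p = 2.60e-05), or 7.54-fold.

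C3, the component that every pathway cleaves, was already bright and had signals of 5301 with nicotine and 5590.2 with EGF on the A549 ID1 siRNA arrays. Control siRNA arrays had 1603 with nicotine, 1467 with EGF and 2567 without a stimulus. The change was smaller than those of C1R, C1S and CFB and had the smallest error of the 5, at 1.83 ± 0.12 on the log2 scale (limma adjusted p = 4.31e-05). Against the unstimulated control C3 was 2.07-fold and 2.18-fold higher. The rises of C1R, C1S, CFB and C3 stayed called when any H1650 array or the A549 unstimulated control was left out. They also stayed called under each other setting in which the gene was tested. With fits that left out a stimulated A549 array included, log2 values lay between 1.54 and 3.27. Those fits rest on the remaining A549 pair and do not measure the spread of the effect in A549. With the mean of all probe sets of a gene, C1S and CFB were too dim to be tested.

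The fluid-phase regulators were near or below the array medians in A549. CFI, the protease that inactivates C3 and C4 fragments, had signals of 93.4 with nicotine and 68.7 with EGF on ID1 siRNA arrays. Control siRNA arrays had 30.0 with nicotine, 23.2 with EGF and 50.7 without a stimulus, all dim. The ID1 siRNA array with EGF was dim as well. Its rise of 1.60 ± 0.42 (limma adjusted p = 0.0242) comes to at least 1.27-fold by the rule given for C1S. The call was lost when any of the 4 stimulated A549 arrays was left out (adjusted p between 0.0950 and 0.127), under quantile normalization (0.0627) and without the signal filter (0.0543). SERPING1, the C1 inhibitor, had 70.1 with nicotine and 108 with EGF on ID1 siRNA arrays, against 28.4, 5.63 and 34.3 on the nicotine, EGF and unstimulated controls. The controls were all dim, as was the ID1 siRNA array with nicotine, and both ID1 siRNA arrays were above each control. Over the mean of both pairs SERPING1 was at least 1.38-fold higher, with no test.

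The 3 membrane regulators were among the bright probe sets in A549 and differed little between siRNAs. CD46, the cofactor of factor I, had 8161 and 8024 on the ID1 siRNA arrays with nicotine and EGF. The controls had 7799.5 with nicotine, 8603 with EGF and 8764 without a stimulus, so the groups overlapped. Its log2 change was -0.02 ± 0.11, with a 95% interval of -0.28 to 0.24. CD55, which dissociates convertases, had 4291 with nicotine and 5282 with EGF on ID1 siRNA arrays, against 3699, 4551 and 2936 on the nicotine, EGF and unstimulated controls. Its change of 0.21 ± 0.09 did not pass (limma adjusted p = 0.129), though it did under quantile normalization (0.32, adjusted p = 0.0211). CD59, the inhibitor of the pore, had 7852 and 7569 with ID1 siRNA, against 6906, 9632 and 9634.5 on the nicotine, EGF and unstimulated controls. The log2 change of -0.08 ± 0.16 had an interval of -0.44 to 0.27.

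In H1650, ID1 siRNA was accompanied by lower signals of C3 and factor B. Of the same 8 tested genes 2 fell and 0 rose, where 6.60% of all tested genes were called lower and 5.59% higher. C3 had signals of 522 with nicotine and 478 with EGF on the ID1 siRNA arrays, against 1064, 744 and 907 on the nicotine, EGF and unstimulated controls. CFB had 235 and 203 with ID1 siRNA, against 533, 327 and 525 on the nicotine, EGF and unstimulated controls. For both genes every control lay above both ID1 siRNA arrays.

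C3 fell by 0.83 ± 0.12 on the log2 scale (limma adjusted p = 0.00519) and CFB by 0.93 ± 0.18 (adjusted p = 0.0138), or 1.78-fold and 1.91-fold. Neither passed without the intensity trend (adjusted p = 0.0894 and 0.0984), a setting under which 1 gene in all was called in this line. CFB did not pass either when the H1650 ID1 siRNA or control siRNA array with nicotine was left out (-0.69, adjusted p = 0.0797 and 0.0952).

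The classical proteases were dim or near the median in H1650. C1R had 105 with nicotine and 96.5 with EGF on ID1 siRNA arrays, against 113, 90.4 and 157 on the nicotine, EGF and unstimulated controls. Its log2 change was -0.01 ± 0.21, with an interval of -0.49 to 0.48. C1S was dim on all 5 H1650 arrays, at 12.6 and 6.38 with ID1 siRNA and at 31.9, 5.69 and 4.83 on the nicotine, EGF and unstimulated controls, so no fold is given. CFI had 128 and 105 with ID1 siRNA, against 137, 67.8 and 100.03 on the nicotine, EGF and unstimulated controls, and SERPING1 had 110.0 and 86.6 against 95.5, 85.3 and 61.6. For C1R, CFI and SERPING1 the ID1 siRNA and control signals overlapped.

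Among the membrane regulators of H1650, CD55 had 4596 with nicotine and 4253 with EGF on ID1 siRNA arrays, below controls of 5103.5, 4742 and 4815. Although these groups did not overlap, its change of -0.15 ± 0.09 did not pass (limma adjusted p = 0.343). CD46 had 8362 and 8719 with ID1 siRNA, against 6951, 8389 and 7331 on the nicotine, EGF and unstimulated controls. CD59 had 9738.5 and 12908 with ID1 siRNA, against 10831, 11087 and 10285. Their log2 changes were 0.16 ± 0.11 and 0.03 ± 0.16, with intervals of -0.10 to 0.42 and -0.32 to 0.39. With the mean of all its probe sets, CD59 passed as higher (0.58, limma adjusted p = 0.0288).

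**Figure D2:**
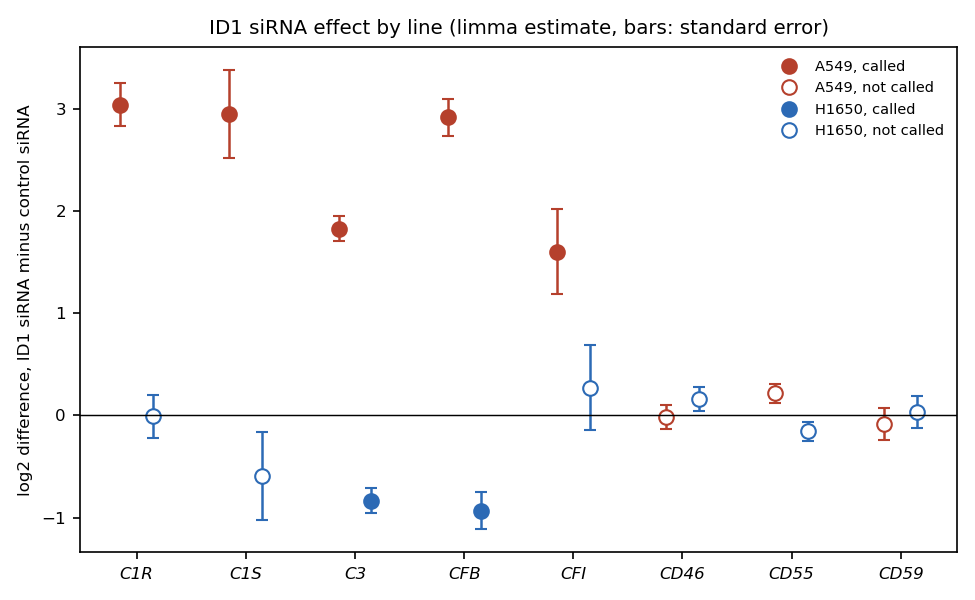
Log2 difference of ID1 siRNA minus control siRNA for the 8 tested complement genes, with A549 in red and H1650 in blue. Bars are limma standard errors, and filled points passed the test at an adjusted p under 0.05. The 5 called A549 points lie between 1.60 and 3.04, and the 2 called H1650 points at -0.83 and -0.93.

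The difference between lines in the ID1 siRNA effect was tested in the same fit and passed for 4 of 8 genes, all higher in A549, where 6.98% of all tested genes were called higher. It was 3.85 ± 0.26 for CFB (limma adjusted p = 6.06e-05), 2.66 ± 0.18 for C3 (adjusted p = 5.83e-05), 3.05 ± 0.30 for C1R (adjusted p = 0.000613) and 3.54 ± 0.61 for C1S (adjusted p = 0.00853). For CFB and C3 the effects were opposite in sign and each was called, whereas C1R and C1S were called in A549 only. The C1S difference rests on dim H1650 signals and did not pass without the A549 ID1 siRNA array with EGF (3.23, adjusted p = 0.0519) or without the intensity trend (adjusted p = 0.0675). CFI differed by 1.33 ± 0.59 (adjusted p = 0.181) and CD55 by 0.37 ± 0.13 (adjusted p = 0.112), and neither passed, though CD55 did under quantile normalization (0.47, adjusted p = 0.0308). CD46 and CD59 had differences of -0.18 ± 0.16 and -0.11 ± 0.22, with intervals of -0.55 to 0.19 and -0.62 to 0.39.

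**Figure D3:**
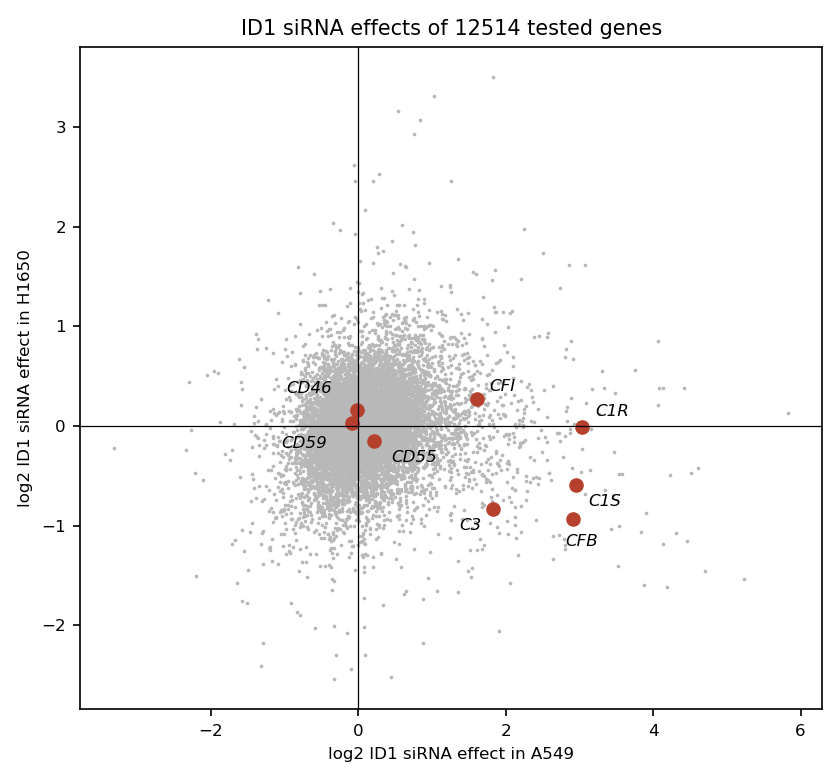
Log2 ID1 siRNA effect in A549 (horizontal) and in H1650 (vertical) for all 12514 tested genes in grey, with the 8 complement genes in red. C1R, C1S and CFB lie near 3 on the A549 axis, C3 and CFB below -0.8 on the H1650 axis, and CD46, CD55 and CD59 in the central cloud.

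Across the 5 matched conditions, A549 had more C1R, C1S and C3 signal than H1650, and less CFI and CD59. Of 8 tested genes 3 were higher and 2 lower in A549. The background was 30.9% of all tested genes called higher and 32.2% called lower. C1S passed the signal limit through A549 and CFI mainly through H1650, the line where each is high, so neither supports a line difference by its call. Of the 6 others 2 were higher and 1 lower. C1S showed the widest gap, with A549 signals of 309 at the lowest, 1111 at the median and 3289 at the highest, against 4.83, 6.38 and 31.9 in H1650. Because every H1650 array was dim for C1S, the gap is given only as at least 14.6-fold.

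C1R lay between 219 and 2235 in A549 and between 90.4 and 157 in H1650, without overlap, and its log2 difference was 2.71 ± 0.50 (limma adjusted p = 0.00157). C3 lay between 1467 and 5590.2 in A549 and between 478 and 1064 in H1650, with a difference of 1.99 ± 0.43 (adjusted p = 0.00340). These sizes depend on the siRNA: among control siRNA arrays alone the differences were 1.55 for C1R and 1.02 for C3, and among ID1 siRNA arrays 4.43 and 3.45. Without the A549 unstimulated control both calls stood.

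CFB did not differ by the test over all conditions (1.29 ± 0.63, adjusted p = 0.103). Its difference was -0.17 on control siRNA arrays (adjusted p = 0.463) and 3.48 on ID1 siRNA arrays (adjusted p = 4.72e-07), and without the H1650 control array with nicotine the test over all conditions passed (1.73, adjusted p = 0.0486). CFI lay between 23.2 and 93.4 in A549, with 4 of 5 arrays dim, and between 67.8 and 137 in H1650, with 1 of 5 dim. Its signal was at least 1.46-fold higher in H1650. The call (limma adjusted p = 0.0109) is no support for a line difference, for the reason given above, and the difference did not pass among ID1 siRNA arrays (adjusted p = 0.246). SERPING1 lay between 5.63 and 108 in A549 and between 61.6 and 110.0 in H1650.

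The brightest probe sets of the membrane regulators differed by less than 0.5 on the log2 scale between lines. CD59 lay between 6906 and 9634.5 in A549 and between 9738.5 and 12908 in H1650, just without overlap, and its difference of -0.41 ± 0.12 passed (limma adjusted p = 0.0177). It did not pass after array-median centring (-0.25, adjusted p = 0.166), nor without the control siRNA nicotine array or the ID1 siRNA EGF array of either line (adjusted p between 0.0658 and 0.0757), nor among control siRNA arrays alone (-0.32, adjusted p = 0.117). CD46 differed by 0.06 ± 0.09, with an interval of -0.15 to 0.27. CD55 differed by -0.20 ± 0.14 over all conditions (adjusted p = 0.243) and by -0.41 on control siRNA arrays (adjusted p = 0.0436). In the fit of single probe sets described last, its other probe sets were called lower in A549 (-0.62 and -0.68, adjusted p = 0.00565 and 0.00219). The CD46 probe set 207549_x_at was called lower (-0.41, adjusted p = 0.0151), as were the 3 brightest of CD59 (-0.52 to -0.41). The CD59 probe set 228748_at, with 3 of 5 H1650 arrays dim, was called higher (1.81, adjusted p = 0.00125).

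**Figure D4:**
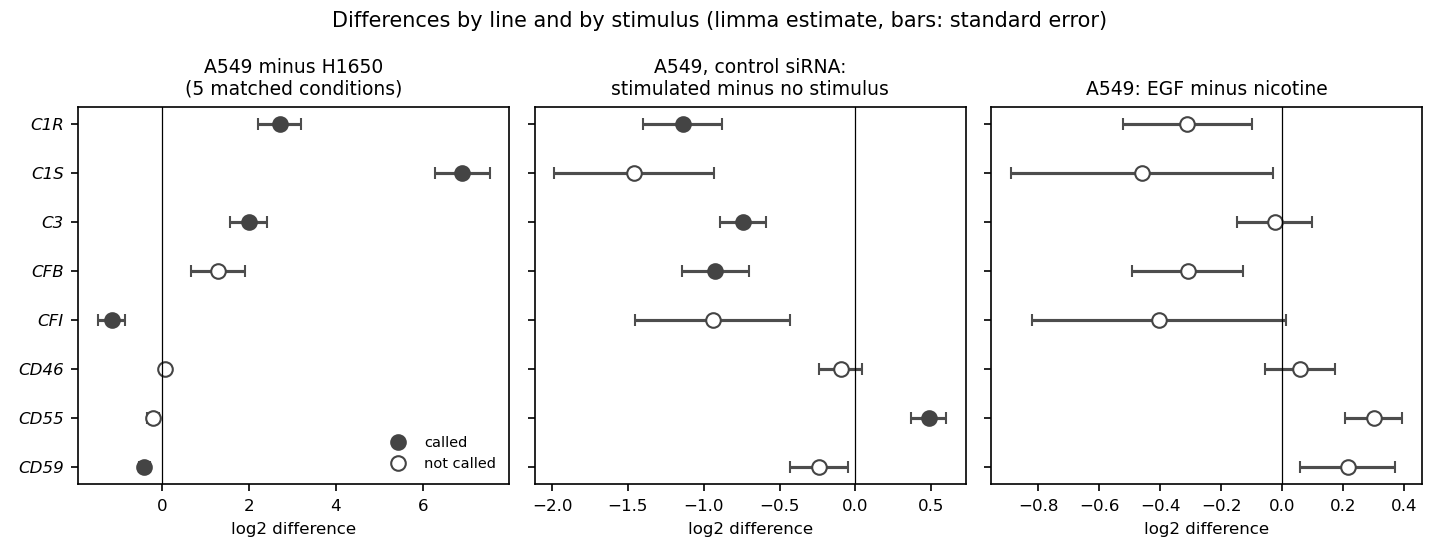
Log2 differences of the 8 tested complement genes between A549 and H1650 (left), between stimulated and unstimulated control siRNA cells of A549 (middle) and between EGF and nicotine in A549 (right), each panel on its own axis. Bars are limma standard errors and filled points passed at an adjusted p under 0.05. C1S is drawn at its fitted 6.91 in the line comparison, which rests on dim H1650 signals, and no gene passed in the comparison of stimuli.

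EGF against nicotine gave no called complement gene in either line. Limma called 0 of 8 in A549, where 0.0240% of all tested genes were called, and 0 of 8 in H1650, where 0.216% were. At an unadjusted p under 0.05 the counts were 1 of 8 in A549 and 3 of 8 in H1650, beside 1202 and 1343 of all 12514 tested genes. The first was CD55 in A549 (0.30 ± 0.09, adjusted p = 0.456), and the others were C3 (-0.32 ± 0.12, adjusted p = 0.407), CFB (-0.46 ± 0.18, adjusted p = 0.416) and C1S (adjusted p = 0.164, all arrays dim) in H1650. C1S in H1650 passed without either ID1 siRNA array of that line (adjusted p = 0.00816 and 0.00674), on signals that were dim throughout. C3 in A549 stood at -0.03 ± 0.12, with an interval of -0.31 to 0.26. The fit takes the siRNA effect to be equal under both stimuli, and any departure from that forms its spread.

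Stimulated against unstimulated control siRNA cells rested on 1 unstimulated array per line, which was assumed to vary like the others. In A549 that is the array whose label could not be checked, and no such comparison can be made without it. In A549, C1R, C3 and CFB fell and CD55 rose, with 4.40% of all tested genes called lower and 2.00% called higher. C1R fell by 1.14 ± 0.26 (limma adjusted p = 0.0384), C3 by 0.74 ± 0.15 (adjusted p = 0.0266) and CFB by 0.92 ± 0.22 (adjusted p = 0.0460). CD55 rose by 0.48 ± 0.12 (adjusted p = 0.0440). C1S stood at -1.46 ± 0.53 (adjusted p = 0.148), and passed at the same value when any of the 4 stimulated H1650 arrays, where it is dim, was left out (adjusted p between 0.0278 and 0.0437).

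These calls share the stimulated control arrays with the A549 ID1 siRNA comparison, and 0 of the 4 passed without the A549 control array with EGF (adjusted p between 0.137 and 0.220). CD55 did not pass without the A549 control array with nicotine either (adjusted p = 0.0926). On the A549 unstimulated control ID1 itself was lower, as the stimulated controls had 2.26-fold and 1.85-fold its signal with nicotine and EGF. In H1650 limma called 0 of 8 complement genes and 0% of all tested genes, with 2 complement genes and 595 genes in all at an unadjusted p under 0.05. C1R stood there at -0.64 ± 0.26 (adjusted p = 0.987) and C3 at -0.03 ± 0.15.

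Other complement genes were mostly dim in these lines. Of a list of 51, 44 had a probe set with 1 symbol, 24 of those were dim on every array, and 12 were tested. With ID1 siRNA in A549, 3 of the 12 rose and 1 fell, with a median log2 change of 0.43, beside 13.8% and 11.4% called and a median of 0.05 over all tested genes. THBD (thrombomodulin), a membrane cofactor that also restrains complement, had 5400 with nicotine and 5459.8 with EGF on ID1 siRNA arrays, against 947 and 1034 on the matched controls and 5364 on the unstimulated control. Its signal on the unstimulated control was thus as high as with ID1 siRNA, and the rise over matched controls was 2.46 ± 0.16 (limma adjusted p = 2.85e-05). C4BPA, a chain of the C4b-binding protein that inhibits the classical convertase, rose by 1.53 ± 0.47 (adjusted p = 0.0447), and CFD, the protease that cleaves factor B, by 0.73 ± 0.14 (adjusted p = 0.00649). C1QBP, a mitochondrial protein that also binds C1q, fell by 0.45 ± 0.14 (adjusted p = 0.0499). It had 14833 and 15007 with ID1 siRNA, against 17389, 23866 and 16161 on the nicotine, EGF and unstimulated controls, so the fall was largest against the EGF control.

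In H1650, 2 of the 12 rose and 0 fell, beside 5.59% and 6.60% of all tested genes. These were THBD, with dim matched controls and at least 1.48-fold higher (adjusted p = 0.00878), and CFD (0.63 ± 0.14, adjusted p = 0.0220). C4BPA, with 1 ID1 siRNA array dim, did not pass (adjusted p = 0.0717). CFD was higher with ID1 siRNA in all 4 pairs, by 1.52-fold to 1.68-fold. Between lines 9 of the 12 were higher and 1 lower in A549, with a median of 1.90, beside 30.9% and 32.2% of all tested genes. C1RL and CFHR2 were dim on every H1650 array and CPN1 on 4 of 5, so these passed the signal limit through A549, where they are high. C5, whose cleavage starts assembly of the pore, was higher by 4.34 ± 0.16 with 2 of 5 H1650 arrays dim (limma adjusted p = 2.07e-07), clusterin (CLU), a soluble inhibitor of the pore, by 3.63 ± 0.11 (adjusted p = 7.32e-08), and C1RL, a C1r-like protease, was at least 14.0-fold higher. ITGB2, the beta chain of leukocyte integrins that include complement receptors, was lower in A549, at -0.77 ± 0.29 (adjusted p = 0.0421).

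Known inducers of complement genes were read from a list of 14, of which 9 were tested. In A549, 7 of the 9 rose with ID1 siRNA and 0 fell, with a median log2 change of 0.76, beside 13.8% and 11.4% called and a median of 0.05 over all tested genes. IL6, a cytokine of the acute phase, rose by 2.37 ± 0.16 (limma adjusted p = 3.48e-05), IRF9, a subunit of the interferon-activated transcription factor, by 1.27 ± 0.14 (adjusted p = 0.000586) and CEBPD, an acute-phase transcription factor, by 1.25 ± 0.12 (adjusted p = 0.000239). IL1B, STAT3, IRF1 and NFKB1 rose by 1.44, 0.55, 0.76 and 0.52. In H1650, 1 of the 9 fell, IRF9 by 0.60 ± 0.14 (adjusted p = 0.0309), and 0 rose, beside 6.60% and 5.59% of all tested genes. IFNB1 and IFNG, which encode interferons, were dim on average and not tested, and IFNG was dim on every array. In A549, IFNB1 had 62.3 (dim) and 111 with nicotine and EGF on ID1 siRNA arrays. Its nicotine, EGF and unstimulated controls had 2.70, 2.24 and 4.88, all dim, so it was at least 1.31-fold higher over both pairs. In H1650 it had 57.8 and 44.0 with ID1 siRNA, against 109, 48.0 and 116 on the same controls. Whether the inducers account for the complement changes was not tested.

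The complement genes that rose in A549 tracked each other across the 10 arrays once each line was centred on its mean. Pearson's r was 0.986 between C3 and CFB, 0.952 between CFB and C1R, 0.902 between C1S and CFI and 0.767 between C1R and C1S. These genes were picked by their rise in A549 and all points share the ID1 siRNA contrast, so the values describe these arrays and carry no test. C1S was dim on all 5 H1650 arrays and CFI on 5 of the 10 arrays, so values with either gene rest partly on dim signals. In H1650, C3 and CFB fell with ID1 siRNA while C1R stood at -0.01. The genes most like C3 were COXFA4L3 (0.994), GRN, which encodes progranulin (0.987), and CFB. Those most like C1R were IFNGR1, a chain of the interferon-gamma receptor (0.984), MDK, the growth factor midkine (0.983), and PPM1K (0.979). C1S was most like C6orf58, LINC00960 and BPGM (0.971 to 0.956), and CFI most like PINK1 (0.972), MIR146A and ST6GAL1. For the membrane regulators the leading genes were TPM2 with CD46 (0.970), ZGPAT with CD55 (0.973) and SHMT2 with CD59 (0.907).

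Other probe sets of the membrane regulators gave another picture for CD59, in a fit of 23144 probe sets chosen after the gene-level values were seen. The probe set 212463_at of CD59 had 1464 with nicotine and 1621 with EGF on H1650 ID1 siRNA arrays, against 563, 692 and 663 on the nicotine, EGF and unstimulated controls. It was higher with ID1 siRNA in both H1650 pairs, by 2.60-fold and 2.34-fold (log2 1.30 ± 0.11, limma adjusted p = 0.00131). In A549 the same probe set had 1174 and 1118 with ID1 siRNA, against 1451, 1499.6 and 1614 on the nicotine, EGF and unstimulated controls, and fell by 0.36 ± 0.11 (adjusted p = 0.0481). The difference between lines was -1.67 ± 0.16 (adjusted p = 0.000590).

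The dimmest CD59 probe set, 228748_at, also rose in H1650, by at least 1.66-fold over dim controls (adjusted p = 0.0293), with 121 and 134 on ID1 siRNA arrays and 23.2, 66.6 and 72.7 on the nicotine, EGF and unstimulated controls. The 3 brightest CD59 probe sets stood between -0.15 and 0.03 in H1650, and none was called. The CD46 probe set 211574_s_at rose in H1650 (0.69 ± 0.18, adjusted p = 0.0435), beside 0.16 and 0.20 for the others. The 3 probe sets of CD55 were called in neither line.

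**Figure D5:**
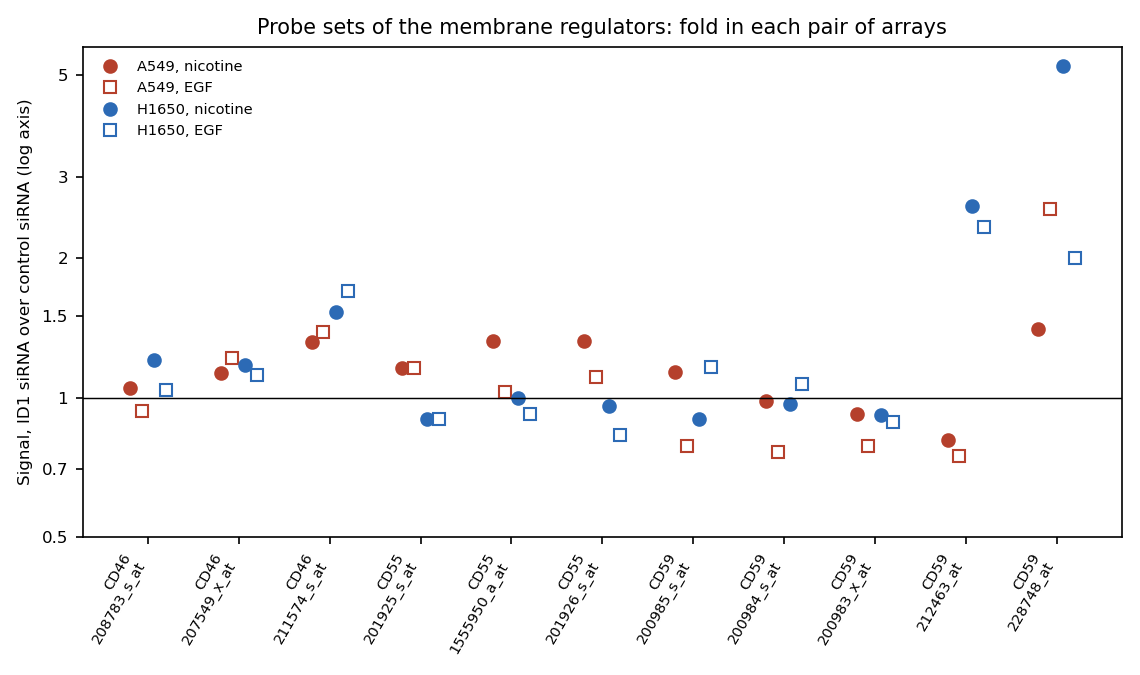
Signal with ID1 siRNA over control siRNA (log axis) in each of the 4 pairs of arrays for all probe sets of CD46, CD55 and CD59, brightest first within a gene. Red is A549 and blue H1650, filled circles nicotine and open squares EGF. In H1650 the CD59 probe set 212463_at lies at 2.60-fold and 2.34-fold and the 3 brightest at 0.884-fold to 1.16-fold. The ratios of 228748_at in H1650 are drawn as measured over dim controls.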

How the data were processed

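Transcript signals were measured on 10 Affymetrix U133 Plus 2.0 arrays. The authors deposited linear signal intensities per probe set, for which the submitters' processing notes name GCOS 1.4 and MAS5, with a 2% trimmed mean near 500 on every array. The labels mention a log2 transformation that the deposited values do not carry, so log2 was taken here. No detection calls were used, and precision is limited by the number of arrays. All 10 columns were mapped to samples by accession, and 0 were left out.

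Of 54675 probe sets, 41091 carried 1 gene symbol, and the brightest of each of 19775 genes was kept. Limma 3.58.1 in R 4.3.3 (moderated tests with an intensity trend, Benjamini-Hochberg adjustment over 12514 genes, threshold 0.05) was fitted to log2 signal. The first fit had ID1 siRNA and stimulus terms for each line separately (2 residual degrees of freedom). Another had line and condition terms, with 4. The fits recovered known changes in simulated data with independent noise, in which no siRNA effect differed between stimuli. That checks the calculation and not the errors of these arrays. The named genes were all 9 members, ID1, listed complement genes and inducers that passed, and the 3 most similar genes per tested member. Members, lists and promoter motifs were chosen with earlier results of these data known. Some listed genes were not analysed here.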

Additional observations from a re-analysis of the deposited data

Results flagged for a closer look

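The ID1 siRNA effect differed between lines by limma's test of the difference, A549 minus H1650 on the log2 scale, for CFB (3.85), C1S (3.54), C1R (3.05) and C3 (2.66) among the complement genes studied. It also differed for C4BPA (3.04) and THBD (1.55) among other complement genes, and for IL6 (2.90), IRF9 (1.87) and CEBPD (1.21) among known inducers. C4BPA was at 2.33-fold and 3.56-fold of its matched controls in A549 with nicotine and EGF, and in H1650 it had 21.1 (dim) and 86.4 with ID1 siRNA, against 132 and 113 on matched controls. The C1S difference rests on H1650 arrays that were all dim, and the THBD difference on dim H1650 matched controls. The CD59 probe set 212463_at differed the other way (-1.67), and the brightest CD59 probe set did not pass (-0.11). These differences were tested within 10 arrays, with n = 2 pairs per line, and their causes were not tested.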

How the results depend on the processing

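With n = 1 array per condition, each main test rests on 2 or 4 residual degrees of freedom and on the spread of other genes. Fits without a stimulated array, or on the arrays of 1 siRNA only, had fewer. Without a stimulated array the ID1 siRNA effect of that line rests on its remaining pair. Its error then comes from the other line and from other genes. No pairing by replicate culture was possible because the labels carry no replicate numbers. Arrays were paired by stimulus within a line, and matched by condition between lines. Of 64 results for 8 genes and 8 comparisons, 20 were called, and 10 of these kept their call under every setting in which the gene was tested. Those of CFB and C1S among the 10 were not tested with the mean of all probe sets. The number of complement genes called changed by more than 1.5 times in these cases. For ID1 siRNA in A549 it was 2 with the mean of all probe sets, where C1S, CFB and CFI dropped below the signal filter, against 5, and 4 to 5 when an array was left out. In H1650 it was 0 without the intensity trend, against 2, and 1 to 2 when an array was left out. For the difference between lines it was 2 with the mean of all probe sets, against 4, and 3 to 4 when an array was left out. For stimulated against unstimulated A549 controls it was 1 without the filter, 0 with the mean of all probe sets and 0 without the trend, against 4, and 0 to 5 when an array was left out. For EGF against nicotine in H1650 it was 0 to 1 when an array was left out, with C1S the gene gained. With the mean of all probe sets the line difference reversed for CD46 (-0.24) and CD59 (0.20).

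Over all tested genes, array-median centring moved the A549 calls to 947 higher and 3948 lower with ID1 siRNA, against 1727 and 1426, and the calls for the difference between lines to 625 and 1804, against 873 and 611. It also gave 612 higher and 1118 lower in H1650, against 700 and 826, 395 and 525 for stimulated A549 controls, against 250 and 550, and 4577 and 3187 between lines, against 3862 and 4031. Calls by comparison fell without the trend to 1394 of 3153 (A549), 1 of 1526 (H1650), 199 of 1484 (difference) and 25 of 800 (stimulated A549 controls), and with the mean of all probe sets to 1741, 589, 638 and 138. Without the filter stimulated A549 controls had 524. Leaving out an array gave as few as 1408, 932, 841 and 391 calls and as many as 1296 for the last. For EGF against nicotine the 3 calls in A549 became 15 after centring, 0 without the trend and up to 177 with an array left out, and the 27 in H1650 became 100, 0 and up to 233, 8 without the filter and 3 with the mean of all probe sets. The stimulated H1650 controls had 9 calls after centring and up to 104 with an array left out, against 0.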
